A study of Drosophila melanogaster with 8 samples.

Results

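The homeotic (Hox) gene complexes of Drosophila melanogaster were examined as a stretch of chromatin to set against H3K9me3 heterochromatin. They were taken as all 1 kb windows of chromosome arm 3R between positions 2450001 and 2850000 (Antennapedia complex, 400 windows) and between 12450001 and 12820000 (bithorax complex, 370 windows) of genome build dm3. That is 770 of the 168744 windows listed for the genome. The rule that selects them uses position only. They were compared with the 25530 other windows of 3R between 1.5 and 27.8 Mb, called the rest of 3R here.

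Chromatin immunoprecipitation sequencing (ChIP-seq) with an antibody to H3K9me3 was done on ovaries of adult flies that carried the MTgal4 driver and a short hairpin RNA. In 1 genotype the hairpin was shW, taken here as the control, and in the other it was shSov, named for Sov. Going by the series title, the question was whether germ cells need Sov to place H3K9me3 across the genome. All flies of both genotypes carried MTgal4, and flies were kept at 24 °C and fed yeast for 2 to 3 days before dissection. Each genotype had 2 ChIP libraries and 2 input libraries from lysate saved ahead of the antibody step, so 8 libraries in all. MTgal4 drives expression in the female germ line, whereas whole ovaries also hold somatic follicle cells that it does not target. A change in the number of cells that carry a mark and a change in the mark per cell cannot be told apart in such samples.

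The Hox genes encode homeodomain transcription factors that give body segments their identity along the head-to-tail axis. The Antennapedia complex holds, in the order of a RefSeq gene table, labial (lab), proboscipedia (pb), zen2, zen, bicoid (bcd), Deformed (Dfd), the microRNA gene mir-10, Sex combs reduced (Scr), fushi tarazu (ftz) and Antennapedia (Antp). These act mainly in the head and thorax, while bcd, zen, zen2 and ftz pattern the early embryo. The bithorax complex holds Ultrabithorax (Ubx), abdominal A (abd-A), the microRNA genes mir-iab-4 and mir-iab-8, and Abdominal B (Abd-B), which act in the posterior thorax and the abdomen. The same table lists 43 genes from lab to Antp, of which 19 are protein-coding. It lists 16 from Ubx to Abd-B, of which 6 are protein-coding. Both complexes are the textbook targets of Polycomb group proteins, which keep Hox genes silent outside their domains and mark the chromatin with trimethylation of another residue, lysine 27 of histone H3. H3K9me3, bound by Heterochromatin Protein 1, marks the repeat-rich chromatin around centromeres instead. Neither Polycomb binding nor H3K27me3 was measured here. The gene table follows Release 6 of the genome and not dm3, so it gave names and order only, and no gene was placed on any window.

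Of the 770 windows, 757 had a mean input signal of at least 2 RPKM (reads in a window scaled to its length and to the library total) and were tested, 396 in the Antennapedia and 361 in the bithorax complex. The other 13 windows, 4 and 9 in the respective complexes, are not included in the counts below. A tested member window held a median of 38 and 45 ChIP reads in shW and of 112 and 43 in shSov. Input medians were 84 and 64 reads in shW and 177 and 169 in shSov, and every member window held reads in every library. The smallest library, shW ChIP replicate 1, held 4208693 reads, and the largest, the first shSov input, 27962050. The precision of a single window is therefore set mainly by the ChIP libraries other than shSov replicate 1. Counts of replicates differed by more than counting error in every group, with a chi-square statistic of 1.41 to 3.00 per degree of freedom.

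Both complexes stood above the rest of their chromosome arm in H3K9me3 ChIP signal over input, in all 4 ChIP libraries and in both genotypes, and both lay far below mapped heterochromatin. Enrichment is the log2 ratio of ChIP to input RPKM after adding 1 RPKM to each, every ChIP being divided by the input of its genotype and replicate number. The mean enrichment of the bithorax complex was 0.46 and 0.12 in shW replicates 1 and 2, and 0.10 and 0.22 in shSov replicates 1 and 2. For the Antennapedia complex it was 0.29 and −0.03 in shW and 0.02 and 0.11 in shSov. Over the rest of 3R the means were −0.67 and −0.47 in shW and −0.31 and −0.37 in shSov. So the bithorax complex was the higher of the complexes in each library. In each genotype both values of each complex lay above both values of the rest of 3R. The excess itself varied between shW replicates, at 0.95 and 0.43 for the Antennapedia complex.

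On the mapped heterochromatin scaffold of the same arm (3RHet), 607 of 2518 windows (24.1%) had enough input to be tested, against 96.9% of the rest of 3R. The mean enrichment of these 607 windows was 2.07 and 2.06 in shW and 1.75 and 1.76 in shSov. Their mean input was 0.47 of that of the rest of 3R in shW and 0.55 in shSov. The percentages that follow therefore refer to this tested part of the scaffold. Set against the rest of 3R, the excess of the Antennapedia complex was 34.9% and 17.2% of that of 3RHet in shW and 16.1% and 22.4% in shSov. The excess of the bithorax complex was 41.1% and 23.4% in shW and 19.7% and 27.6% in shSov. The genotypes overlap in both. These are percentages of a difference of log2 ratios, with a pseudocount of 1 RPKM. As a contrast to H3K9me3 heterochromatin the complexes were low in every library, but they did not have the level of the surrounding arm.

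None of the other 400 kb stretches examined in the compared range of 3R reached the level of the complexes. A fixed grid from 1.5 to 27.8 Mb gave 61 stretches of 400 kb without member windows. Grid stretches that held a member window or were shorter than 400 kb were left out, and 3R outside that range was not divided. In shW replicate 1 their mean enrichment ran from −0.89 to −0.27 with a median of −0.72, and in shW replicate 2 from −0.62 to −0.21 with a median of −0.49. In shSov replicate 1 it ran from −0.42 to −0.15 with a median of −0.32, and in shSov replicate 2 from −0.51 to −0.13 with a median of −0.39. The number of stretches at or above either complex was 0 of 61 in every library. The stretch from 3900001 to 4300000 was the highest over the 4 libraries, at −0.29 and −0.21 in shW and −0.15 and −0.13 in shSov. The 1 Mb of 3R nearest the centromere, which lies outside the compared range, had means of −0.06 and −0.15 in shW and −0.07 and −0.05 in shSov, lower than both complexes in each library. That order is reversed in ChIP reads taken without division by input, as given with those reads.

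**Figure D1:**
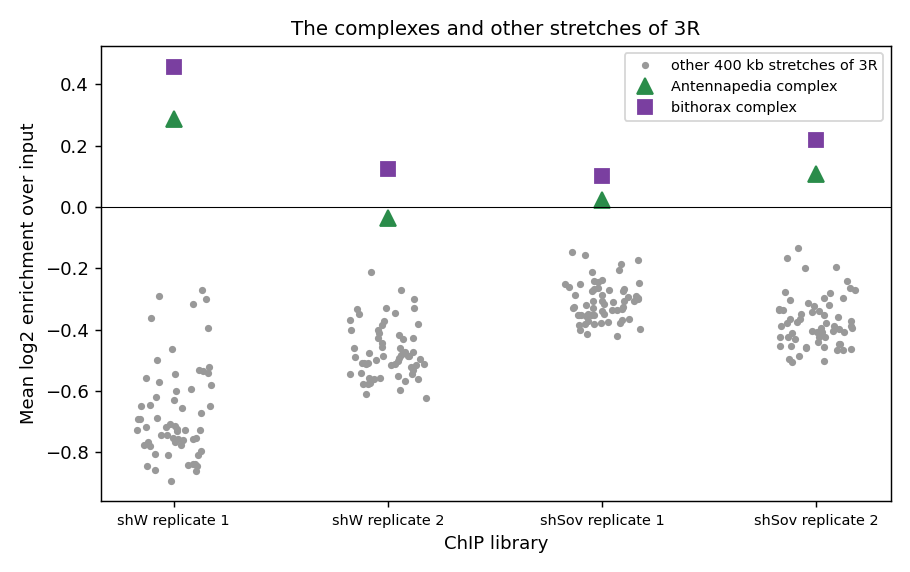
Mean log2 enrichment of H3K9me3 ChIP over input (vertical axis) in each of the 4 ChIP libraries, with 1 grey point for each of 61 stretches of 400 kb of 3R and larger symbols for the complexes; grey points are spread sideways only for legibility. Both symbols lie above all grey points in each library, and the distance is widest in shW replicate 1.

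The elevation had a different shape in each complex. In the bithorax complex it was a plateau of the ratio to input, with sharp ends inside the chosen range. The 320 kb from 12480001 to 12800000 had a mean enrichment of 0.62 and 0.23 in shW and 0.17 and 0.32 in shSov, over 314 tested windows. The 30 kb below it had means of −0.85 and −0.66 in shW and −0.42 and −0.52 in shSov, and the 20 kb above it −0.17 and −0.47 in shW and −0.30 and −0.27 in shSov. These limits were drawn after the values had been seen and serve as a description.

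The standard deviation of the 10 kb segments was 0.15 and 0.12 in shW and 0.09 and 0.12 in shSov over the 31 segments of the plateau, whose limits were drawn on these values. Over all 36 scored bithorax segments it was 0.45 and 0.31 in shW and 0.22 and 0.30 in shSov, close to the 0.43 and 0.30 in shW and 0.20 and 0.25 in shSov over the 2501 segments of the rest of 3R. At its lower edge the segment at 12470001 had values of −0.44 and −0.49 in shW and −0.35 and −0.40 in shSov. The next segment, at 12480001, had 0.37 and −0.08 in shW and −0.00 and 0.06 in shSov. At the upper edge the step was from 0.78 and 0.31 in shW and 0.30 and 0.47 in shSov at 12790001 to 0.12 and −0.23 in shW and −0.16 and −0.05 in shSov at 12800001. Both steps in enrichment went the same way in every library. At the lower edge, however, ChIP signal before division by input fell in every library, as given with the input. The highest bithorax segment over the 4 libraries, at 12720001, had 0.73 and 0.42 in shW and 0.35 and 0.49 in shSov, and the lowest, at 12460001, −0.86 and −0.76 in shW and −0.44 and −0.60 in shSov.

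**Figure D2:**
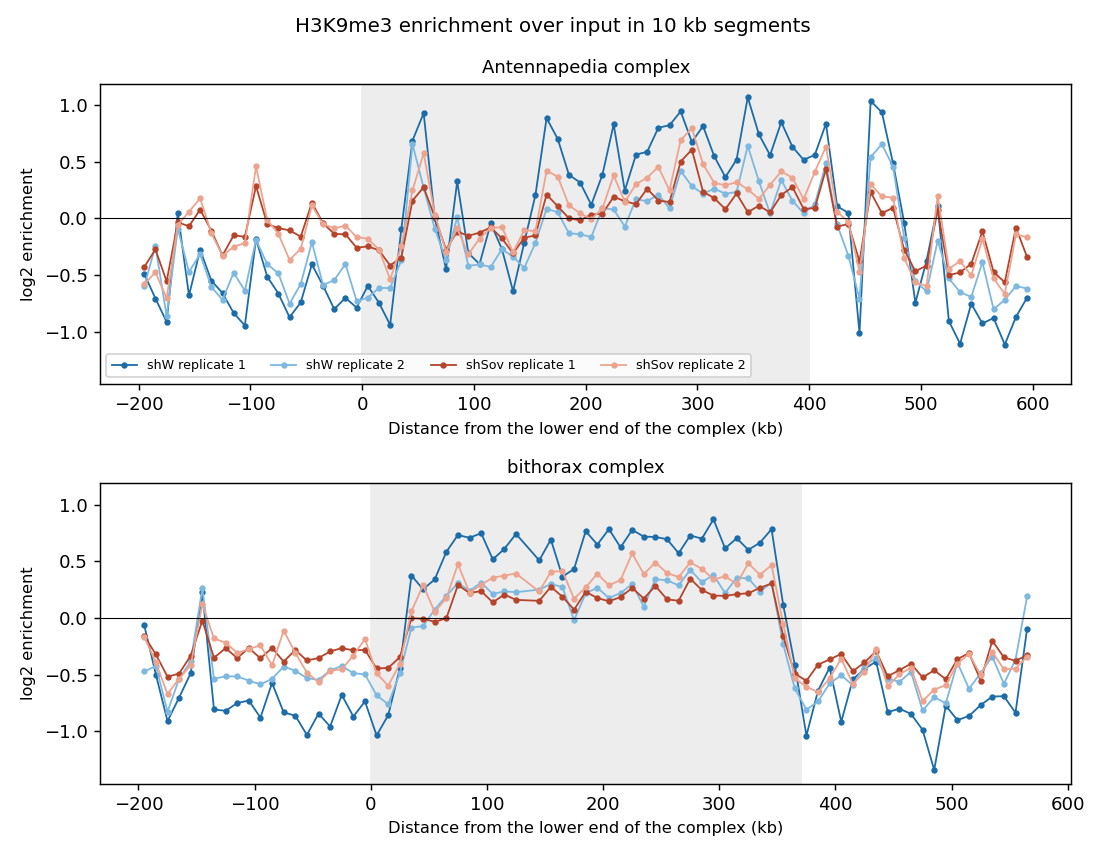
Mean log2 enrichment over input of 10 kb segments (vertical axis) against distance from the lower end of each complex in kb, 1 line per ChIP library, with the chosen range shaded. The bithorax complex shows a plateau that begins 30 kb inside its lower end in all 4 libraries, and the Antennapedia complex a narrow high stretch near its lower end and a long one that runs past its upper end.

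In the Antennapedia complex high and low stretches alternated. The first 40 kb, from 2450001 to 2490000, was close to the rest of 3R, with means of −0.64 and −0.59 in shW and −0.33 and −0.32 in shSov. The next 20 kb, from 2490001 to 2510000, had 0.79 and 0.43 in shW and 0.19 and 0.34 in shSov. The following 100 kb, from 2510001 to 2610000, were lower, at −0.22 and −0.32 in shW and −0.17 and −0.20 in shSov. The remaining 240 kb, from 2610001 to 2850000, had 0.61 and 0.14 in shW and 0.15 and 0.28 in shSov. These stretches, too, were drawn after the values had been seen. The highest Antennapedia segment over the 4 libraries was at 2730001, with 0.94 and 0.42 in shW and 0.50 and 0.69 in shSov, and the lowest at 2470001, with −0.94 and −0.62 in shW and −0.42 and −0.54 in shSov.

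The upper end set for the Antennapedia complex did not coincide with a drop. The last segment inside, at 2840001, had 0.52 and 0.04 in shW and 0.08 and 0.17 in shSov, and the first outside, at 2850001, had 0.56 and 0.12 in shW and 0.09 and 0.41 in shSov. The segment after it, at 2860001, was at 0.83 and 0.48 in shW and 0.43 and 0.63 in shSov. At 2870001 the values fell to 0.11 and −0.05 in shW and −0.07 and 0.06 in shSov. At 2880001 they were 0.05 and −0.33 in shW and −0.05 and −0.03 in shSov. They fell further at 2890001, to −1.01 and −0.71 in shW and −0.38 and −0.47 in shSov. Higher signal followed at 2900001, with 1.03 and 0.54 in shW and 0.23 and 0.30 in shSov. The lower end, by contrast, lay in low signal on both sides. The segment below it had −0.79 and −0.73 in shW and −0.26 and −0.17 in shSov, and the segment above it −0.60 and −0.70 in shW and −0.25 and −0.18 in shSov. Of the bithorax ends, the lower had −0.74 and −0.50 in shW and −0.28 and −0.18 in shSov outside and −1.04 and −0.68 in shW and −0.45 and −0.49 in shSov inside. The upper had −0.41 and −0.62 in shW and −0.49 and −0.53 in shSov inside and −1.04 and −0.81 in shW and −0.55 and −0.61 in shSov outside. Low segments thus lay at both ends of the bithorax range.

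The high segments formed the longest continuous runs of the compared range of 3R. A segment was counted when it lay above the 90th percentile of the rest of 3R in all 4 libraries, which held for 18.3% of all 11891 segments of the genome and for 139 of 2501 segments (5.56%) of the rest of 3R. In the Antennapedia complex 23 of 40 segments and in the bithorax complex 31 of 36 passed. Runs of 21 segments (210 kb) extended from 2660001 to 2870000 and from 12590001 to 12800000, and a run of 10 segments (100 kb) from 12480001 to 12580000. The segment between the last pair, at 12580001, had 4 tested windows of 10 and was not scored. Outside the complexes the longest runs on 3R in the compared range held 5 segments (50 kb).

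Windows above input made up a larger share of the complexes than of the rest of the arm. By edgeR's quasi-likelihood test with Benjamini-Hochberg adjustment over 117126 windows, 13.8% of all tested windows were above input in shW and 12.3% in shSov at an adjusted p below 0.05. In shW 108 of 396 Antennapedia windows (27.3%) and 150 of 361 bithorax windows (41.6%) were above input, against 4.15% of the rest of 3R. In shSov these counts were 71 (17.9%) and 76 (21.1%), against 3.03% of the rest of 3R. Windows below input made up 50.6% of all tested windows in shW and 37.8% in shSov. In shW 54 Antennapedia and 30 bithorax windows were below input, against 63.7% of the rest of 3R, and in shSov 41 and 26, against 47.1%.

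These splits depend on where the level of no enrichment is set, since library totals place most of the arm below input. With TMM scaling 481 member windows were above and 20 below input in shW, and 357 above and 9 below in shSov, while 6.95% and 5.94% of the rest of 3R were above. Without shW replicate 1 the median log2 ratio to input in shW was 0.11 over member windows and −0.59 over the rest of 3R. Without shW replicate 2 it was 0.59 and −0.88. In shSov it was 0.24 and −0.46 without shSov replicate 1, and 0.10 and −0.38 without shSov replicate 2. Each of these leaves a lone library that is assumed to vary like the others, so windows called are not counted for them. In 10 kb segments, for which reads were summed, 16.4% of all segments were above input in shW and 14.4% in shSov. In shW 22 of 40 Antennapedia and 27 of 36 bithorax segments were above, against 4.36% of the rest of 3R, and in shSov 11 and 23, against 2.64%. Below input were 69.0% of all segments in shW and 58.8% in shSov, and in the complexes 10 Antennapedia and 4 bithorax segments in shW and 7 and 4 in shSov.

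Few member windows reached a high enrichment in both shW libraries. A log2 enrichment of at least 1 in both shW libraries was reached by 7.23% of all tested windows and 0.901% of the rest of 3R. In the complexes 8 windows (1.06%) reached it, a share close to that of the arm. In shW replicate 1 alone 76 member windows (10.0%) reached it, against 1.83% of the rest of 3R, and in shW replicate 2 alone 8 (1.06%), against 1.25%. Of the 8 windows in both, 7 lay in the Antennapedia complex, at 2491001, 2503001, 2535001, 2796001, 2797001, 2798001 and 2804001, and 1 in the bithorax complex, at 12760001. In both shSov libraries 0 member windows reached it, against 0.311% of the rest of 3R and 5.80% of all tested windows.

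The window at 2535001 had the highest mean of the Antennapedia complex over the 4 libraries, with 1.66 and 1.64 in shW and 0.74 and 1.26 in shSov. Its ChIP signal was 21.9 and 21.9 RPKM in shW and 14.4 and 19.2 RPKM in shSov, on inputs of 6.21 and 6.35 RPKM in shW and 8.23 and 7.44 RPKM in shSov. It stood in the low middle stretch of the complex. The window above it had −0.16 and −0.23 in shW and −0.14 and −0.18 in shSov, so the peak was narrow on that side in all libraries. The next highest, at 2738001 in the long upper stretch, had 1.64 and 0.98 in shW and 0.82 and 0.97 in shSov. In the bithorax complex the highest windows were at 12695001, with 1.29 and 0.82 in shW and 0.38 and 0.81 in shSov, and at 12673001, with 0.89 and 0.58 in shW and 0.56 and 1.22 in shSov. The lowest windows were at 2645001 and 2480001 in the Antennapedia complex and at 12463001 and 12810001 in the bithorax complex. That at 2645001 had −0.40 and −1.71 in shW and −0.95 and −1.29 in shSov, with only 19 and 18 ChIP reads in shW replicate 2 and shSov replicate 2. The one at 12463001 had −1.57 and −0.87 in shW and −0.80 and −0.75 in shSov, below 0 in all 4 libraries.

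The profile within the complexes recurred between libraries. Across the 757 member windows Pearson's r between pairs of ChIP libraries was 0.63 to 0.72, and across the 24751 tested windows of the rest of 3R it was 0.49 to 0.67. Windows are not independent replicates, and windows of 1 library share its depth and input.

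The input itself was low over the complexes. The mean input RPKM of the Antennapedia complex divided by that of the rest of 3R was 0.83 ± 0.035 in shW and 0.80 ± 0.0037 in shSov (SD, n = 2). The ratio for the bithorax complex was 0.78 ± 0.017 in shW and 0.78 ± 0.00056 in shSov (SD, n = 2). Over the 4 inputs the complexes had 6.85 and 6.55 RPKM, and the 61 other stretches had 5.36 to 11.2 RPKM with a median of 8.37. At or below the Antennapedia complex were 6 of these stretches, and 2 were at or below the bithorax complex. Along the bithorax plateau the input was 5.85 RPKM, and in the 30 kb below it 12.6 RPKM. ChIP signal on the plateau was 9.30 and 7.23 RPKM in shW and 6.82 and 7.78 RPKM in shSov. In the 30 kb below, ChIP signal was 7.37 and 7.46 RPKM in shW and 9.34 and 8.64 RPKM in shSov. That is higher than on the plateau in every library but shW replicate 1. From the segment at 12470001 to that at 12480001 mean input fell from 13.6 to 7.27 RPKM, and ChIP signal fell in every library.

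**Figure D3:**
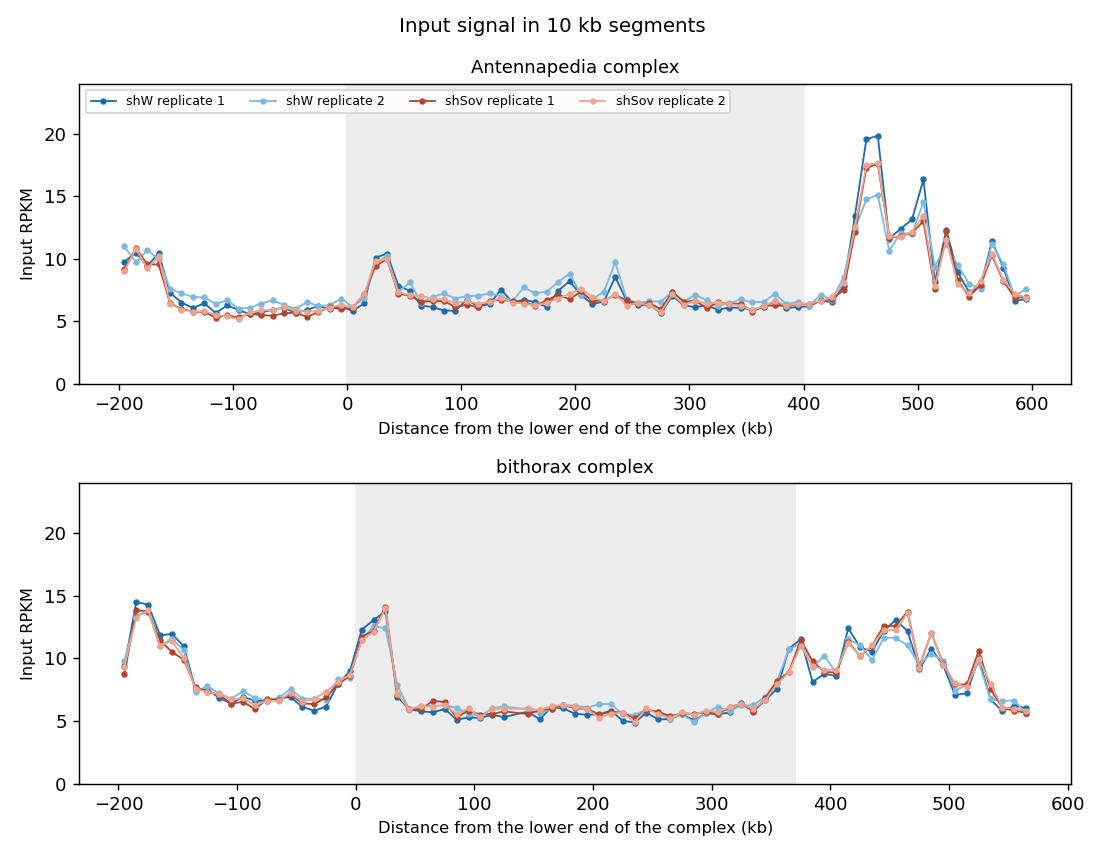
Mean input signal in RPKM of 10 kb segments (vertical axis) against distance from the lower end of each complex in kb, 1 line per input library, with the chosen range shaded. Input drops to about the same low level along the bithorax plateau in all 4 libraries, and it is similarly low in the 150 kb below the Antennapedia complex.

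Because enrichment is a ratio to input, windows were compared at like input. Among windows with a mean input of 5 to 6 RPKM, the 218 member windows had a mean enrichment of 0.60 and 0.17 in shW and 0.13 and 0.28 in shSov. The 3800 windows of the rest of 3R in that class had −0.66 and −0.45 in shW and −0.27 and −0.33 in shSov. In each class from 2 to 10 RPKM the members were higher than the rest in all 4 libraries. At 10 RPKM or more the 46 member windows had −0.78 and −0.61 in shW and −0.40 and −0.49 in shSov, close to the −0.75 and −0.50 in shW and −0.41 and −0.47 in shSov of the rest. Across the input classes the rest of 3R ran from −0.75 to −0.61 and from −0.50 to −0.43 in shW. In shSov it ran from −0.41 to −0.26 and from −0.47 to −0.32, with the lowest values at 10 RPKM or more. Member windows at 2 to 5 RPKM had 0.63 and 0.19 in shW and 0.12 and 0.16 in shSov. Enrichment of member windows was thus far lower at high input than at low input in every library, and the cause was not tested. The scored member segments at 10 RPKM or more were at 2480001 (10.1), 12450001 (11.7), 12460001 (12.5) and 12470001 (13.6). They lay in the low stretches at the lower ends of the complexes and were below 0 in every library. The 150 kb just below the Antennapedia complex, from 2300001 to 2450000, had a mean input of 5.99 RPKM and a mean enrichment of −0.66 and −0.52 in shW and −0.10 and −0.11 in shSov. That is below both complexes in every library and near the rest of 3R in shW, but in shSov it is above the rest of 3R and above all 61 of the 400 kb stretches. Against the 12955 windows of the rest of 3R with an input of 5.25 to 8.18 RPKM, a comparison added after the data had been seen, the excess was 0.68 in shW and 0.36 in shSov for the Antennapedia complex. For the bithorax complex it was 0.84 in shW and 0.45 in shSov.

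**Figure D4:**
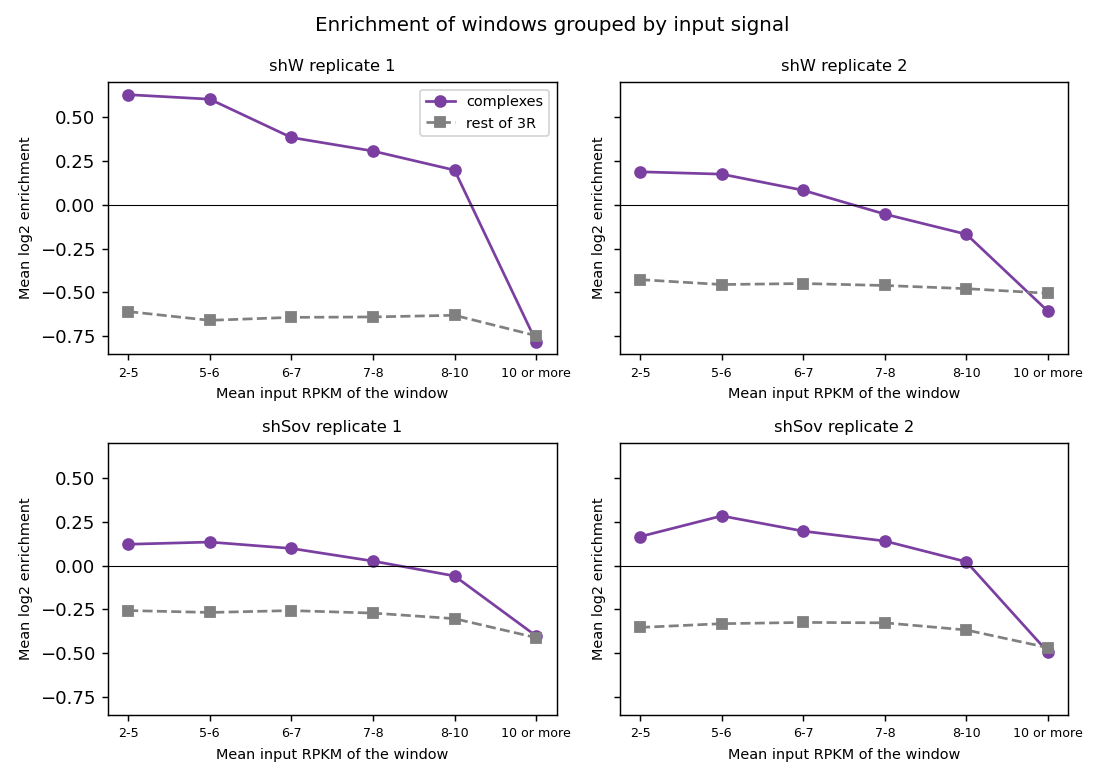
Mean log2 enrichment (vertical axis) of member windows (circles) and of the rest of 3R (squares) in classes of mean input RPKM, 1 panel per ChIP library. Member windows lie above the rest in every class below 10 RPKM and meet it at 10 RPKM or more.

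In ChIP reads alone both complexes were again above the rest of 3R in every library, but not above every other region. The mean ChIP signal of the Antennapedia complex was 9.04 and 7.25 RPKM in shW and 6.99 and 7.67 RPKM in shSov. For the bithorax complex it was 9.08 and 7.23 RPKM in shW and 7.02 and 7.81 RPKM in shSov, and for the rest of 3R 5.48 and 6.08 RPKM in shW and 6.69 and 6.54 RPKM in shSov. On the log2 scale the Antennapedia complex exceeded the rest by 0.72 and 0.25 in shW and by 0.06 and 0.23 in shSov. The bithorax complex exceeded it by 0.73 and 0.25 in shW and by 0.07 and 0.26 in shSov. The complexes were not ordered alike in every library, since in shW replicate 2 the Antennapedia complex was marginally the higher. The 1 Mb of 3R nearest the centromere had 10.9 and 9.63 RPKM in shW and 9.65 and 10.0 RPKM in shSov, above both complexes in every library. In shSov replicate 1 the 400 kb below the bithorax complex, at 7.28 RPKM, and the 400 kb above the Antennapedia complex, at 7.07 RPKM, were also above both. The ranking of the complexes over the 1 Mb nearest the centromere therefore holds only after division by input. Over these 400 kb stretches it holds in ChIP reads too in both shW replicates and in shSov replicate 2, but not in shSov replicate 1.

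Between genotypes the complexes did not differ beyond the spread of the replicates. The Antennapedia complex exceeded the rest of 3R by 0.95 and 0.43 in shW and by 0.33 and 0.48 in shSov, which is 0.69 ± 0.37 and 0.40 ± 0.10 (SD, n = 2). The excess of the bithorax complex was 1.12 and 0.59 in shW and 0.41 and 0.59 in shSov, or 0.86 ± 0.38 and 0.50 ± 0.13 (SD, n = 2). The difference of these means, shSov minus shW, was −0.29 for the Antennapedia and −0.36 for the bithorax complex on the log2 scale. For the Antennapedia complex shW replicate 2 lay between the shSov values, and for the bithorax complex it all but coincided with shSov replicate 2. The distance rested on shW replicate 1, the shallowest ChIP library. Without it the differences were −0.03 and −0.10, and without shW replicate 2 they were −0.55 and −0.63. No p is given for these means, because the members had been chosen with results of these data known.

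On the library totals alone, the complexes differed between genotypes by less than the spread of the shW replicates. The mean enrichment of the Antennapedia complex was 0.13 ± 0.23 in shW and 0.07 ± 0.06 in shSov, and that of the bithorax complex 0.29 ± 0.24 and 0.16 ± 0.08 (SD, n = 2). The differences, shSov minus shW, were −0.06 and −0.13, and without shW replicate 1 they were 0.10 and 0.04, of the opposite sign. The rest of 3R had −0.57 ± 0.14 in shW and −0.34 ± 0.04 in shSov. RPKM are shares of a library, so a lower share in one place raises the others, and no spiked-in chromatin is described. By window, the median change of enrichment was −0.09 in the Antennapedia and −0.19 in the bithorax complex, 0.27 in the rest of 3R and 0.19 in all tested windows. With DESeq2's own size factors the median of the members was −0.35 and that of the rest of 3R 0.06.

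Few single windows changed. The interaction of genotype and antibody in edgeR's quasi-likelihood test called 0.595% of all tested windows lower and 0.264% higher in shSov. Among members 5 of 757 (0.661%) were lower and 0 higher, a share near that background. All 5 lay in the Antennapedia complex, and the bithorax complex had 0 in either direction. At an unadjusted p below 0.05 there were 30 lower (7.58%) and 13 higher (3.28%) windows in the Antennapedia complex. In the bithorax complex there were 25 lower (6.93%) and 9 higher (2.49%). Of the rest of 3R, 2.35% were lower and 12.0% higher at that level. DESeq2 called 6 member windows (0.793%) lower and 0 higher, against 0.707% and 0.0566% of the rest of 3R. limma called 0 in either direction, against 0.125% lower and 0.0162% higher in the rest of 3R.

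The most changed was the window at 2797001, with an enrichment of 1.89 and 1.18 in shW and 0.01 and 0.20 in shSov. Its ChIP signal was 23.0 and 19.1 RPKM (97 and 122 reads) in shW and 6.30 and 8.89 RPKM (104 and 52 reads) in shSov. Both shSov libraries lay below both shW libraries, while inputs were 5.48 and 7.89 RPKM in shW and 6.22 and 7.63 RPKM in shSov and overlapped. The log2 change was −1.63 (edgeR adjusted p = 0.00073). Its neighbours changed with it. The window at 2796001 had ChIP signals of 16.9 and 15.4 RPKM in shW and 8.72 and 7.87 RPKM in shSov, with a log2 change of −0.96 (edgeR adjusted p = 0.047). The window at 2798001 had 17.1 and 18.3 RPKM in shW and 7.63 and 10.3 RPKM in shSov, with a log2 change of −1.04 (edgeR adjusted p = 0.033). These adjoining windows make up 3 kb and share reads from fragments that span their borders, so they are not separate findings.

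The other windows that passed were apart from these. The window at 2491001, in the narrow high stretch near the lower end, had an enrichment of 1.01 and 1.00 in shW and 0.16 and −0.15 in shSov. Its ChIP signal was 14.3 and 14.6 RPKM in shW and 7.63 and 5.64 RPKM in shSov, on inputs of 6.57 and 6.76 RPKM in shW and 6.72 and 6.38 RPKM in shSov. The log2 change was −1.01 (edgeR adjusted p = 0.038). The window at 2716001 had an enrichment of 1.10 and 0.58 in shW and −0.21 and −0.09 in shSov, with a log2 change of −1.15 (edgeR adjusted p = 0.027). Its input was higher in both shSov libraries, at 6.97 and 6.98 RPKM, than in shW, at 5.11 and 5.94 RPKM, so input and ChIP both entered its change. In all 5 windows the shSov enrichment lay below the shW enrichment without overlap. Of the 8 windows that had reached a log2 enrichment of 1 in both shW libraries, 4 were among these 5, which is a description, since both counts use the shW values. With a replicate block in edgeR's test the windows at 2716001 and 2797001 passed. Those at 2491001 (adjusted p = 0.0504), 2796001 (0.060) and 2798001 (0.066) did not. With a lysate block, which pairs each ChIP with the input of its genotype and replicate number, only 2797001 passed (edgeR adjusted p = 0.0059). The adjusted p was then 0.070 at 2491001, 0.056 at 2716001, 0.095 at 2796001 and 0.114 at 2798001. Leaving out a replicate leaves a lone library in its group, so only median log2 changes are given here. Without shW replicate 1 the median was 0.06 over member windows and 0.18 over the rest of the arm. Without shW replicate 2 it was −0.37 and 0.45, of opposite sign. Without shSov replicate 1 it was −0.05 and 0.21, and without shSov replicate 2 −0.19 and 0.29.

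In 10 kb segments 1.28% of all 11891 segments were lower and 1.23% higher in shSov by the same test. Of the 76 member segments 1 was lower and 0 higher. It was the segment from 2790001 to 2800000, which contains the 3 adjoining windows. Its enrichment was 1.07 and 0.64 in shW and 0.05 and 0.25 in shSov, and its ChIP libraries held 582 and 705 reads in shW and 1103 and 447 in shSov. The log2 change was −0.78 (edgeR adjusted p = 0.0136). The median change over segments was −0.11 in the Antennapedia and −0.18 in the bithorax complex, against 0.28 in the rest of 3R and 0.22 in all segments. DESeq2, whose size factors take up most of the shift of the arm, called 10 member segments (13.2%) lower and 0 higher. Of the rest of 3R it called 3.24% lower and 2.04% higher, and of all 11891 segments 737 lower and 170 higher. Without shW replicate 1 the median change was 0.08 over member segments and 0.18 over the rest of 3R. Without shW replicate 2 it was −0.40 and 0.45. Without shSov replicate 1 it was −0.05 and 0.25, and without shSov replicate 2 −0.26 and 0.32.

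**Figure D5:**
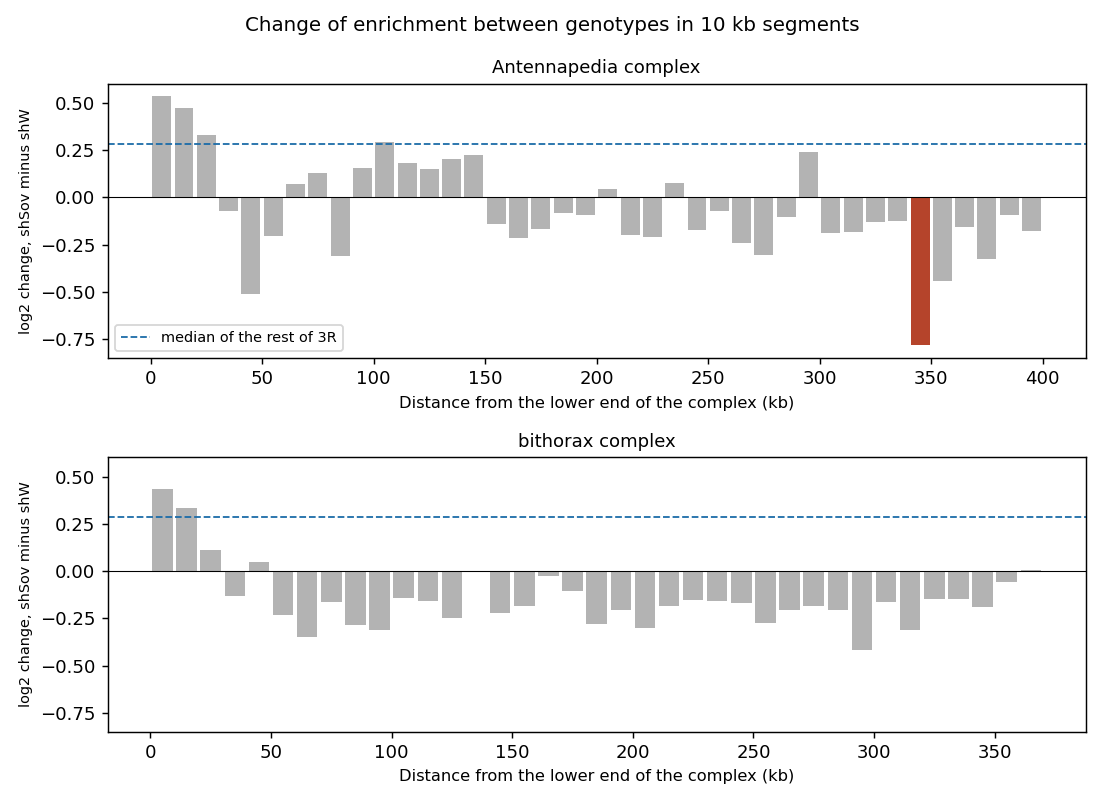
Log2 change of enrichment, shSov minus shW (vertical axis), of each 10 kb segment against distance from the lower end of each complex in kb, with the median of the rest of 3R as a dashed line; the red bar is the segment past an adjusted p of 0.05. Most segments of the plateau and of the long Antennapedia stretch lie below 0 and below the dashed line. Of the low segments at the lower ends, those at 2480001 (−0.07) and 12470001 (0.11) lie below the dashed line and the others above it.

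After subtraction of each library's median over the rest of 3R, both shSov libraries lay below both shW libraries in 27.1% of all tested windows and 20.3% of the rest of 3R. This held for 137 of 396 Antennapedia windows (34.6%) and 160 of 361 bithorax windows (44.3%). The opposite order held for 22 (5.56%) and 9 (2.49%) of the windows of the respective complexes, against 13.4% of all windows and 17.1% of the rest of 3R. In segments the shares below were 16 of 40 and 19 of 36, against 37.1% of all segments and 26.4% of the rest of 3R. These orders rest on 2 libraries a genotype, and windows of 1 complex share those libraries.

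The inputs of the genotypes were also compared. By edgeR's test 0.662% of all tested windows were lower and 0.695% higher in the shSov inputs, and among members 2 of 757 (0.264%) were lower and 0 higher, a smaller share than that background. The median change in input was −0.003 over member windows and 0.02 over the rest of 3R. With 1 replicate left out at a time, the median over member windows ran from −0.04 to 0.03. The 2 windows called lower were both at the upper end of the bithorax range. The window at 12817001 had 20.0 and 17.5 RPKM in the shW inputs and 10.3 and 11.3 RPKM in the shSov inputs, a log2 change of −0.80 (edgeR adjusted p = 0.023). The adjoining window at 12818001 had 4.97 and 5.23 RPKM in shW and 2.07 and 2.09 RPKM in shSov, a log2 change of −1.28 (edgeR adjusted p = 0.0013). ChIP reads were lower in both as well, at 8.32 and 4.86 RPKM in shW and 1.76 and 2.74 RPKM in shSov for 12818001. The change of enrichment did not pass in either window, with edgeR adjusted p of 0.490 and 0.694. Whether the shSov flies differ from the shW flies in copies of this DNA was not tested. Both windows lie outside the plateau.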

How the data were processed

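H3K9me3 ChIP and input libraries were sequenced as single reads of 50 bases from fragments of 200 to 400 bases, per the labels' protocols. Bowtie, bedtools and build dm3 are named in the submitters' processing notes; versions and the treatment of multiply mapping or duplicate reads are not given in the sources used here. The deposited tables give, for each 1 kb window, the authors' raw read count and the RPKM value, scaled to window length and library total. Windows without unique sequence can hold few reads, so a mean input of at least 2 RPKM was required (117126 windows). Titles with the word repeat were numbered replicate 2. No label says that replicates came from separate flies, so p-values measure the spread between these libraries, which may be technical.

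From the counts, edgeR 4.0.16 fitted genotype, antibody and their interaction over all 8 libraries with library totals as offsets, for windows and for sums over 10 kb segments with at least 5 tested windows, with Benjamini-Hochberg adjustment at 0.05. limma 3.58.1 with trend and DESeq2 1.42.0 were alternatives. The scripts were tested on simulated data. Segments start at multiples of 10 kb. The members and the lists were chosen with earlier results of these data known. Named windows are those past the threshold, and the 2 highest and 2 lowest of each complex (1 and 1 for segments). Same-numbered libraries of the genotypes did not deviate together, so numbers were not taken as pairs. Promoter and microRNA sequences were not analysed here.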

Additional observations from a re-analysis of the deposited data

Results flagged for a closer look

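In 5 windows of 1 kb and 1 segment of 10 kb, all in the Antennapedia complex, the enrichment over input differed between shSov and shW by the interaction term of edgeR's quasi-likelihood test. The log2 change was −1.01 in the window at 2491001, −1.15 at 2716001, −0.96 at 2796001, −1.63 at 2797001 and −1.04 at 2798001. In the segment at 2790001, which holds the last 3 of these windows, it was −0.78. Both shSov libraries were below both shW libraries in each. The share of member windows called lower, 0.661%, was near the 0.595% over all tested windows. No explanation was tested.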

How the results depend on the processing

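The excess of both complexes over the rest of 3R kept its sign under every alternative run for it. With a pseudocount of 5 RPKM the shSov excess was 0.27 (Antennapedia) and 0.32 (bithorax), and from ChIP reads alone, an alternative added after seeing the data, 0.15 and 0.16. With libraries centred on the median of the rest of 3R, the complexes' own change between genotypes was −0.32 and −0.39. The input ratio by medians was 0.89 in shW and 0.88 in shSov for the Antennapedia complex and 0.80 in shSov for the bithorax complex, and without a filter the shSov ratios were 0.82 and 0.785.

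Member windows called lower in shSov were 0 with limma, 2 with a replicate block, 1 with a lysate block and 18 (2 higher) from ChIP reads alone. In the same order, 0.125%, 0.424%, 0.323% and 1.19% (2.87% higher) of windows of the rest of 3R were called lower. Member segments called lower were 2 with TMM, 10 with DESeq2 and 5 (2 higher) from ChIP reads alone. For segments of the rest of 3R these shares were 1.76%, 3.24% and 2.08% (15.0% higher). The replicate block moved no other count by over 1.5 times. Deviations from the group means of same-numbered libraries correlated with r = −0.026 over all tested windows. With TMM 20 member windows were below and 481 above input in shW, and 9 and 357 in shSov. At an input of at least 5 RPKM 1 member window was lower in input. The causes were not tested. The window at 2797001 passed under 9 of 12 alternatives, the segment at 2790001 under 10 of 12 and the other named windows under 6 of 12, and none reversed its direction.

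Leaving out 1 replicate at a time gave 0 to 69 member windows lower and 0 to 11 higher, and 0 to 49 segments lower and 0 to 6 higher. Against input it gave 58 to 317 windows above and 52 to 69 below in shW, 10 to 206 and 5 to 94 in shSov, and 0 to 22 windows lower and 0 to 5 higher in input. The change between genotypes ran from −0.22 to 0.10 (Antennapedia) and −0.30 to 0.04 (bithorax), and relative to the rest of 3R from −0.55 to −0.03 and −0.63 to −0.10. The excess ran from 0.43 to 0.95 and 0.59 to 1.12 in shW and from 0.33 to 0.48 and 0.41 to 0.59 in shSov. There were 2 libraries a group, and how small a change this depth can show was not measured. Each fit with a replicate left out rests on a lone library in 1 group, so its counts are not compared with a background. The highest counts of change between genotypes came without shW replicate 2, where the rest of 3R moved the opposite way. The median log2 change was then −0.37 over member windows and 0.45 over those of the rest of 3R. Over segments it was −0.40 and 0.45.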
